A study of Mus musculus with 4 samples.

Results

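Acinar cells are the enzyme-secreting cells of the exocrine pancreas, and the cells described here are those that the authors still labelled Acinar after weeks of repeated injury with caerulein. They were chosen by the deposited cell type name, which the authors gave to cells of a table filtered for EYFP. They numbered 3698 of 13362 cells with a deposited type and of 21140 deposited cells in all, and came from 4 mice as 1461 and 583 cells after 2 weeks of caerulein and 762 and 892 cells after 4 weeks. All 4 mice carried the genotype Ptf1aCre-ERTM;ROSAYFP/+, were backcrossed into CD-1, and were 10 weeks old when injury began. Each had received tamoxifen by gavage before injury, so that Cre made from the Ptf1a locus, which in the adult pancreas is active in acinar cells, switched on the fluorescent protein EYFP there. Caerulein was then injected into the peritoneum on 5 days of each week for 2 weeks in 2 mice or 4 weeks in 2 mice, and EYFP-positive, DAPI-negative cells were sorted and read with 10x Genomics 3' chemistry. Mice without caerulein were not analysed here, so no value below is a difference from uninjured acinar cells. Mice are called 2-week mouse 1 and 2 and 4-week mouse 1 and 2 in order of deposit, and the numbers pair nothing.

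An acinar cell spends most of its messenger RNA on digestive enzymes, which are stored in zymogen granules and released when cholecystokinin or acetylcholine raises calcium in the cell. Caerulein is an analog of cholecystokinin, and an excess of it activates enzymes inside the cell and causes pancreatitis. The enzyme program is held by the transcription factor complex PTF1, in which Ptf1a and an E protein bind DNA together with Rbpjl. After injury, acinar cells can lose this program and take on features of ductal or mucous cells, a process called acinar-to-ductal metaplasia.

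Acinar cells were deep. Their median UMI count, the number of distinct transcript molecules read per cell, was 26482 and 24008 after 2 weeks of caerulein, and after 4 weeks it was 27906 and 32664. The summed UMIs per mouse were 50108195, 17356714, 26114707 and 35669331, in the same order. Acinar cells made up 48.96% (95% exact Clopper-Pearson interval 47.15 to 50.77, for counting error only), 16.24% (15.05 to 17.49), 27.08% (25.44 to 28.76) and 22.45% (21.16 to 23.78) of the typed cells of these mice. The share was highest in 2-week mouse 1 and lowest in 2-week mouse 2. Shares of typed cells depend on the sort and on how many cells of other types were caught. Levels are given as CPM, counts scaled to a common total of UMIs, per mouse unless called pooled over mice. EYFP stood at 195.6 CPM pooled over mice. It had a UMI in 3698 of 3698 Acinar cells, a share that the filter for EYFP fixed for every type. It was found in 6.99% of 1045 lymphocytes without a type, which serve below as a background level. The parts of free RNA and of doublets in that background were not tested. Those lymphocytes were cells without a deposited type that held a Ptprc UMI and UMIs of at least 2 genes of a T and B cell set that included Cd3d, Cd3e, Cd3g, Cd79a, Cd79b and Ms4a1. In 17 Acinar cells the cell barcode also occurred in another library. 4-week mouse 2 stood apart in its sex-linked genes: Xist was at 0.0561 CPM there and at 208.6 to 462.7 CPM in the other mice. The 4-week mice were thus unlike each other in Xist, which was read in both 2-week mice. The part of sex in the time differences was not tested. In the later fit over time without 4-week mouse 1, the 5 sex-linked genes tested had a median log2 difference of 10.59. The calls of that fit cannot be read as time genes alone.

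The cells carried their defining markers. Cpa1 (carboxypeptidase A), Ctrb1 (chymotrypsinogen B) and Prss2 (a trypsinogen) each had a UMI in 3698 of 3698 cells. Rbpjl had a UMI in 90.29% of the cells pooled, and in 90.9%, 94.85%, 89.5% and 87% in the order of the mice. Enzyme RNA was also read in other cells: Ctrb1 had a UMI in all 1045 lymphocytes and Cpa1 in 85.84% of them, at a median depth of 3665 UMIs. The levels, pooled over mice, still differed, with Ctrb1 at 222061 CPM against 19981 and Cpa1 at 19888 CPM against 1813.5. Rbpjl was found in 9.38% of lymphocytes and in 21.16% of MucinDuctal cells, the mucous metaplastic type (median 17998 UMIs).

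The regulatory sequence in front of the 4 marker genes is shown because the enzyme program is tied to PTF1, whose DNA site holds an E-box, here searched as CACCTG, next to a TC-box, here searched as TTTCCC. The windows are the 250 bases before the RefSeq start on GRCm38.p6, 5′ to 3′ on the strand of the gene, and capitals mark a match on either strand (CAGGTG and GGGAAA are the other-strand readings).
Cpa1, chr6:30638968-30639217, plus strand: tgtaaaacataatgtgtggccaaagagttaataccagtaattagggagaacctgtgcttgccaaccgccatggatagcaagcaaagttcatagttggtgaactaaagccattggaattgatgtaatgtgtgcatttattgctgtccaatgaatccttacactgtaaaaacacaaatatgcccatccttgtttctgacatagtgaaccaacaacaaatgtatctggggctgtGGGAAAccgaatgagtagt
Ctrb1, chr8:111691011-111691260, minus strand: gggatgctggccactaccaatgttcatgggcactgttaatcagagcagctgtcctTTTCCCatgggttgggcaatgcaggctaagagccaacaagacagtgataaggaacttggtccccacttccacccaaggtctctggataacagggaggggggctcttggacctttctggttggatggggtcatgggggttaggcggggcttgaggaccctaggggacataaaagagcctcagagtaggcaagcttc
Prss2, chr6:41521526-41521775, plus strand: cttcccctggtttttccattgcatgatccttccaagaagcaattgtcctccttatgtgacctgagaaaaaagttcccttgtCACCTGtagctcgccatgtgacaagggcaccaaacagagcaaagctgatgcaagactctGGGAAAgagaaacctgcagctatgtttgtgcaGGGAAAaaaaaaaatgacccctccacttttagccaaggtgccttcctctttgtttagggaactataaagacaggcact
Rbpjl, chr2:164402944-164403193, plus strand: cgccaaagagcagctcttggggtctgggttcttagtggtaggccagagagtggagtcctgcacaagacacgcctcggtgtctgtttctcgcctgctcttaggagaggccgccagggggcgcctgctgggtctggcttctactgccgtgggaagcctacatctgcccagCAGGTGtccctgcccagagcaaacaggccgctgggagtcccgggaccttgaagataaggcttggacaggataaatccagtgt
In these windows Prss2 held both motifs, with CACCTG starting at position -169 and TTTCCC at -110 and -78, counted from the start of the gene. Cpa1 (at -19) and Ctrb1 (at -195) held TTTCCC alone, and Rbpjl (at -82) held CACCTG alone. Of the 33 digestive enzyme genes followed below, 27 had a window in the table, and 15 of these (55.6%) held CACCTG and 9 (33.3%) held TTTCCC. Among all 27025 genes with a window the shares were 19.4% and 24.4%. Trypsinogen and amylase genes are copies of each other and can share promoter sequence, so they are not independent cases. A match is a run of letters and not a measured binding site.

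Digestive enzymes took 53.1% ± 4.55 of all UMIs in Acinar cells (SD, n = 4 mice). The summed level of the 33 genes was 501913 and 482387 CPM after 2 weeks of caerulein, against 566518 and 572819 CPM after 4 weeks. Both 4-week mice lay above both 2-week mice. By class, chymotrypsins and elastases took 283539 ± 26460 CPM, trypsinogens 107100 ± 32729, lipases with colipase 100011 ± 12624, and the carboxypeptidases, amylases and ribonuclease 40259 ± 2144. Ctrb1 alone reached 185743, 238649, 246841 and 246866 CPM. Its level was lowest in 2-week mouse 1 and nearly equal in the 4-week mice. Next came Reg1, a secreted protein of the regenerating family (73442 ± 7991 CPM), Clps, the colipase that anchors lipase to fat droplets (58338 ± 9322), and the trypsinogens Try4 (37681 ± 13837) and Try5 (30677 ± 13717). Prss2, the lipase-related Pnliprp1, Cpa1 and the elastase Cela2a stood at 20018 to 27488 CPM. Chemistry that counts the 3' end gives 1 count per molecule whatever the transcript length, so no correction for length was made. Reads of the trypsinogens Prss1, Prss3, Try4, Try5, Try10, Gm5771, Gm10334 and 1810009J06Rik can match more than 1 near-identical copy. How such reads were counted is not given in the sources used here, so single and summed trypsinogen levels are uncertain.

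Amylase, which splits starch, was read at a low level. Amy2a5, a pancreatic amylase, stood at 136.4, 89.42, 198.9 and 89.99 CPM, so that the time groups overlapped, and Amy1 at 40.53 ± 6.13 CPM. The 5 amylase genes counted are near copies, and their single levels are uncertain. Pnlip, the main pancreatic lipase, stood at 6780, 4111, 9949 and 6732 CPM.

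**Figure D1:**
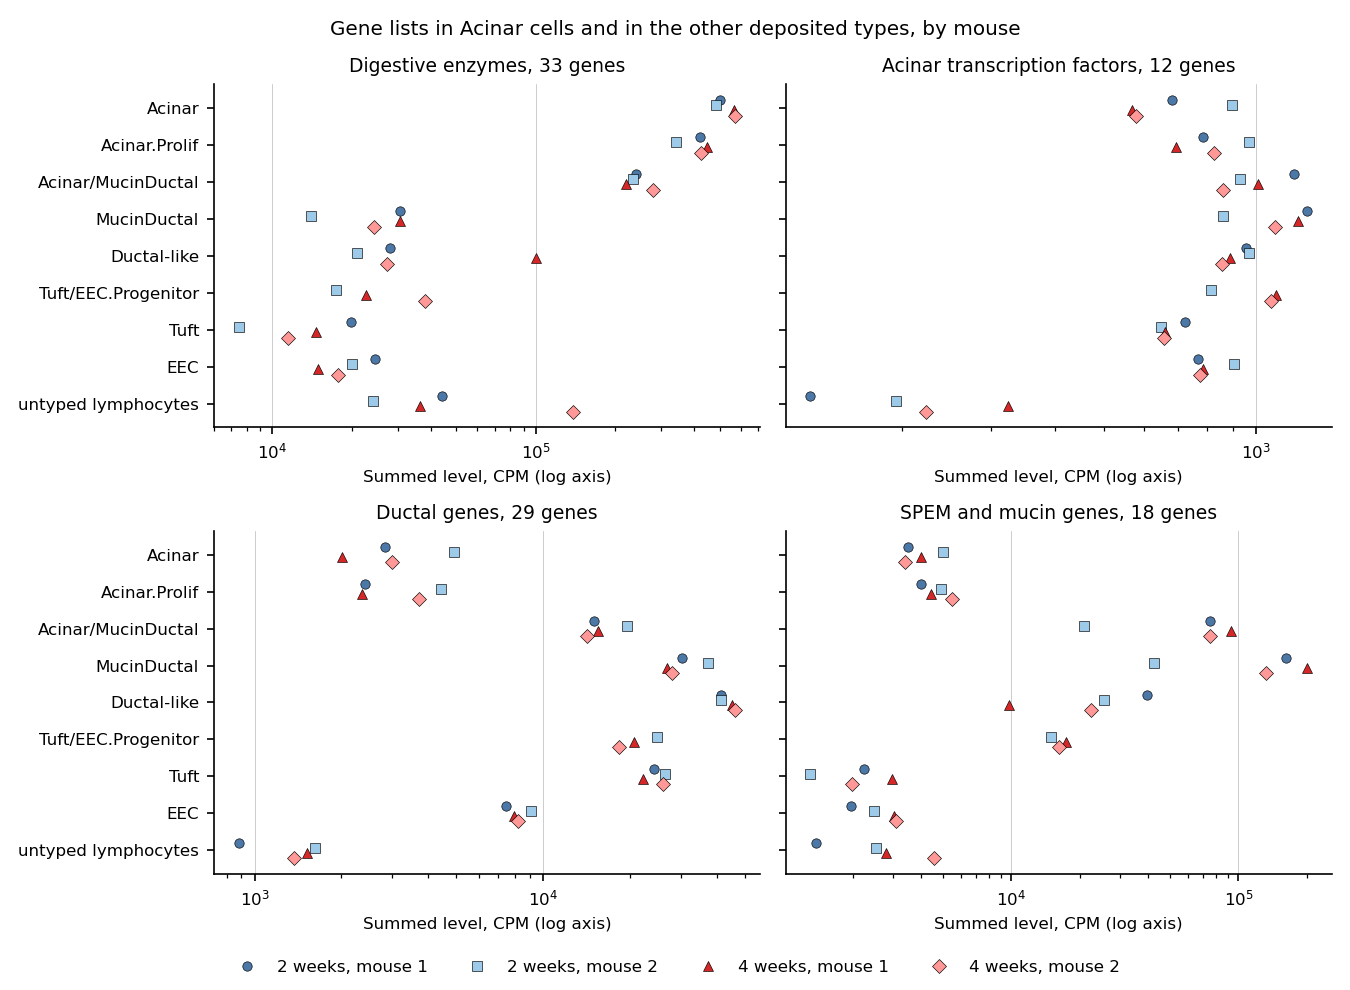
Summed level in CPM (log axis) of 4 gene lists in each deposited cell type, 1 point per mouse, with lymphocytes without a type as a background level. Acinar cells had the highest enzyme level in each of the 4 mice (482387 to 572819 CPM) and ductal and SPEM levels near those of Acinar.Prolif cells.

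Against the other cell types the values are a description, since the authors' types rest on these same counts. The nearest type was Acinar.Prolif, the proliferating acinar cells (894 cells), where enzymes took 407193 ± 45548 CPM. The log2 ratio of Acinar over Acinar.Prolif cells within a mouse was 0.39 on average (0.26 to 0.50). Over Acinar/MucinDuctal cells, which the authors named for both programs (243628 ± 24227 CPM), it was 1.12 (1.04 to 1.36). In MucinDuctal cells enzymes took 24895 ± 7794 CPM, under the 60682 ± 52213 CPM of the lymphocytes, whose level ranged up to 138020 CPM in 4-week mouse 2. Median depth was 17998 UMIs in MucinDuctal cells and 3665 in lymphocytes, so these CPM do not give a like background. Between the acinar types, trypsinogens differed more (log2 0.61 over Acinar.Prolif) than lipases (0.09).

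Of 895 genes with at least 50 CPM in Acinar cells, 0 (0.0%) were 2-fold above every other type in every mouse. The genes outside the lists that came closest were Sostdc1, a secreted antagonist of BMP and Wnt signals, at 52.6 ± 10.6 CPM against 39.1 in Acinar.Prolif cells, and the trypsinogen-like Gm2663 (4701 ± 1880 against 3006 CPM). Atf5 followed, a stress-induced transcription factor, at 72.65 ± 19.16 CPM against 49.80 in Acinar/MucinDuctal cells, and Eif4ebp1, a brake on translation (97.33 ± 26.09 against 67.72 CPM in Acinar.Prolif cells). Their smallest log2 ratios over any type in any mouse were 0.33, 0.31, 0.10 and 0.08.

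In the other direction, 12 of 1100 genes (1.09%) with at least 50 CPM in every other type were 2-fold below all of them in every mouse. They were Arl6ip1, Tubb4b, H2afv, Calm2, Cbx5, Hmgb1, 1810037I17Rik, Ubald2, Smc1a, Hspa8, Tubb5 and Cbx1. Tubb4b, a tubulin, stood at 34.10 ± 11.86 CPM against 147.4 to 1196 in the other types, and Hmgb1, a chromatin protein, at 124.0 ± 25.1 against 328.1 to 897. With 530909 CPM spent on enzymes, every other gene takes a smaller share on this scale. With the enzymes left out of the totals 2 genes were 2-fold below every type.

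The same scale matters for the transcription factors of the acinar program. The 12 factors took 681.6, 896.7, 569.3 and 579.4 CPM in the order of the mice. On average this was less than in Acinar/MucinDuctal (997.9 ± 141.9) or MucinDuctal cells (1107 ± 178). With enzymes out of the totals the order turned, to 1443 CPM in Acinar cells against 1318 and 1136. Rbpjl stood at 155.5, 207.5, 137.7 and 128.1 CPM, against 154.4 in Acinar/MucinDuctal and 15.49 in MucinDuctal cells. Acinar.Prolif cells had more Rbpjl in each mouse, at 215.2, 238.9, 178.7 and 188.7 CPM. Ptf1a, the partner of Rbpjl, stood at 64.46, 62.22, 38.48 and 65.13 CPM against 26.77 in Acinar/MucinDuctal and 1.72 in MucinDuctal cells. Bhlha15, the factor that drives granule maturation, stood at 79.07 ± 15.68 against 58.26 and 28.56 in these types. Gata6, Foxa2 and Mecom went the other way, with Gata6 at 15.88 ± 6.87 CPM in Acinar cells and 97.75 in MucinDuctal cells. Cckar, the receptor that caerulein binds, was read at 239.9, 259.2, 213.8 and 164.0 CPM, against 405.5 in Acinar.Prolif and 73.35 in MucinDuctal cells.

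Metaplasia genes were low but not at 0. The 29 ductal genes summed to 2829, 4900, 2008 and 2989 CPM, with 2-week mouse 2 highest, against 16019 ± 2392 in Acinar/MucinDuctal cells, 30533 ± 4597 in the MucinDuctal type and 1349 ± 330 in lymphocytes. Clu, the chaperone clusterin, made up much of this (1577 ± 601 CPM), followed by the keratin Krt18 (401.7 ± 85.1). The ductal keratin Krt19 had a UMI in 45.24% of Acinar cells (36.34%, 65.52%, 35.7% and 54.71% by mouse) and 5.36% of lymphocytes. Sox9, a ductal and progenitor transcription factor, had a UMI in 58.65% of Acinar cells (55.51%, 75.3%, 53.94% and 56.95% by mouse) and 5.46% of lymphocytes. Such shares rise with depth, at a median of 27362 UMIs in Acinar cells and 3665 in lymphocytes. The levels, pooled over mice, were 43.75 CPM against 13.3 for Krt19 and 43.2 against 19.09 for Sox9. Enzymes take much of the Acinar total and lymphocytes are shallower, so these CPM do not give a like background. The 18 SPEM and mucin genes, which mark spasmolytic polypeptide-expressing metaplasia, a mucous program of injured stomach, summed to 3977 ± 732 CPM. Lymphocytes had 2829 ± 1320 CPM and Acinar/MucinDuctal cells 65939 ± 31241. With enzymes out of the totals the Acinar sum was 8471 CPM and that of lymphocytes 3070. The list of ER folding genes took 6129 ± 332 CPM, less than in Acinar.Prolif cells (8386 ± 412) in each of the 4 mice. The pancreatitis stress list took 5306 ± 1840 CPM, of which Nupr1, a small stress-induced chromatin protein, made up 3643 ± 1787.

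The authors' clusters split the Acinar cells into 3 groups, again defined on these counts and described here without a test. Cluster 0 held 2136 cells, cluster 6 held 823 and cluster 8 held 739. Cluster 0 made up 57.29%, 43.40%, 71.65% and 56.05% of the Acinar cells of the mice, cluster 6 made up 23.20%, 12.69%, 12.60% and 35.20%, and cluster 8 made up 19.51%, 43.91%, 15.75% and 8.74%. Shares differed as much between mice of 1 time point as between time points for clusters 0 and 6, and cluster 8 was largest in 2-week mouse 2. Its share was smaller in both 4-week mice than in both 2-week mice, and its part in the enzyme share of all Acinar cells at 4 weeks, given further on, was not tested beyond the values within clusters. Genes called most above or below both other clusters had the largest smallest difference from them over the 4 mice, a rule chosen after the values had been seen. Others named are members of the gene lists or were named for another comparison.

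Cluster 0 was the most enzyme-rich. Enzymes took 586436 ± 29069 CPM there, against 500414 ± 26636 in cluster 6 and 358056 ± 34910 in cluster 8. The genes most above both other clusters were themselves nearly all secretory: Pnlip (9089 ± 1946 CPM against 4040 and 3094), the elastase Cela3b (13717 ± 2920 against 5936 and 5793), the chymotrypsin Ctrc (4712 ± 1539 against 2186 and 1545), Cela1, Ctrl, Prss3 and the granule lectin Zg16. No gene was 2-fold above both clusters in all 4 mice (0.0% of 32288). Below both were 24 genes (0.0743%), among them Stmn1, a destabiliser of microtubules (16.46 ± 3.68 CPM against 82.10 and 63.44), Npm1, a nucleolar protein (168.6 ± 27.5 against 514.2 and 407.8), the actin Actg1, and Sox4, a transcription factor of immature and injured epithelia (33.38 ± 23.89 against 149.2 and 163.3). With enzymes left out of the totals 0 genes were 2-fold below both and 5 were 2-fold above.

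Cluster 6 had the largest sum of the pancreatitis stress list, at 13215 ± 1440 CPM against 1644 and 3708, most of it from Nupr1. Nupr1 reached 9929, 9358, 11226 and 13153 CPM there, against 580.3 ± 176.4 in cluster 0 and 1118 ± 312 in cluster 8. The mice did not overlap with either other cluster. Trib3, a pseudokinase induced by ATF4 and CHOP, stood at 40.82 ± 1.88 CPM against 1.14 and 1.54. Ddit3, which encodes CHOP, stood at 90.61 ± 6.56 against 7.10 and 13.41, and the stress cytokine Gdf15 at 48.57 ± 30.64 against 3.23 and 3.61. Named from the lists or other comparisons, not by the cluster rule, were Atf3 (111.6 ± 99.6 CPM against 11.93 and 37.05), Atf5 (172.6 ± 9.1 against 33.63 and 38.99), the glutathione-degrading Chac1 (48.02 ± 31.74 against 8.67 and 9.71) and the cysteine-making Cth (76.87 ± 8.18 against 13.99 and 17.85). The noncoding host genes of small nucleolar RNAs Snhg1 (340.2 ± 72.3), Zfas1 (275.6 ± 28.6) and Gas5 (708.2 ± 65.1) stood highest in this cluster as well. Another host gene, Snhg18, lay below both other clusters, at 52.86 ± 14.86 CPM against 109.5 and 219.5. Several ER genes were lowest here instead: Calr, calreticulin, was at 145.6 ± 5.9 CPM against 264.3 and 438.2, and Derl3, Rpn1, Fkbp11 and the disulfide isomerase Agr2 (81.93 ± 16.81 against 278.1 and 328.8) lay below both other clusters too. In all, 39 genes (0.121%) were 2-fold above and 4 (0.0124%) 2-fold below both other clusters in 4 mice, and 73 and 4 with enzymes out of the totals. Cells of this cluster were also the deepest, with a median of 36818 to 48746 UMIs per mouse.

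Because Nupr1, Chac1, Atf3, Trib3 and Ddit3 are known targets of ATF4, which binds the C/EBP-ATF response element, that element was searched as TGATGNAA on both strands. In the windows that follow, capitals mark it on the strand opposite to the gene.
Nupr1, chr7:126625471-126625720, minus strand: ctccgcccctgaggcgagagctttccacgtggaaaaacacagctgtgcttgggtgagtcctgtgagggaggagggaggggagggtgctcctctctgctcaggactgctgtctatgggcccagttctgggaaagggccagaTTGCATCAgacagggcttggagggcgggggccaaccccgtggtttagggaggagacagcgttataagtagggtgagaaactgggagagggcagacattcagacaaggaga
Chac1, chr2:119350992-119351241, plus strand: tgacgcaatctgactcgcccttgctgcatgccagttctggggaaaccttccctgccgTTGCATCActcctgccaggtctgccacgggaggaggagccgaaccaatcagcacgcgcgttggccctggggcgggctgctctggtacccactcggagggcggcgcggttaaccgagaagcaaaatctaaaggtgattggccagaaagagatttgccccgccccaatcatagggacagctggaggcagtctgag
Atf3, chr1:191183334-191183583, minus strand: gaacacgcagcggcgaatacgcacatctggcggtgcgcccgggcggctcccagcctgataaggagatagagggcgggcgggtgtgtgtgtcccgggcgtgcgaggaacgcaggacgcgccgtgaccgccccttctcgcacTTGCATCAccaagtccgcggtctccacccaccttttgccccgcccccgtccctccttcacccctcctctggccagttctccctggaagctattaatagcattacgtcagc
It started at -110 in Nupr1, -193 in Chac1 and -110 in Atf3. The windows of Trib3, Ddit3, Atf5 and Gdf15 did not hold these letters. Of the 12 genes most above both clusters, 1 (8.33%) held it, against 3.91% of all genes with a window. It also occurred in 5 of 27 enzyme genes (18.5%), with Cpa1 (at -133) and Prss2 (at -124) among them.

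**Figure D2:**
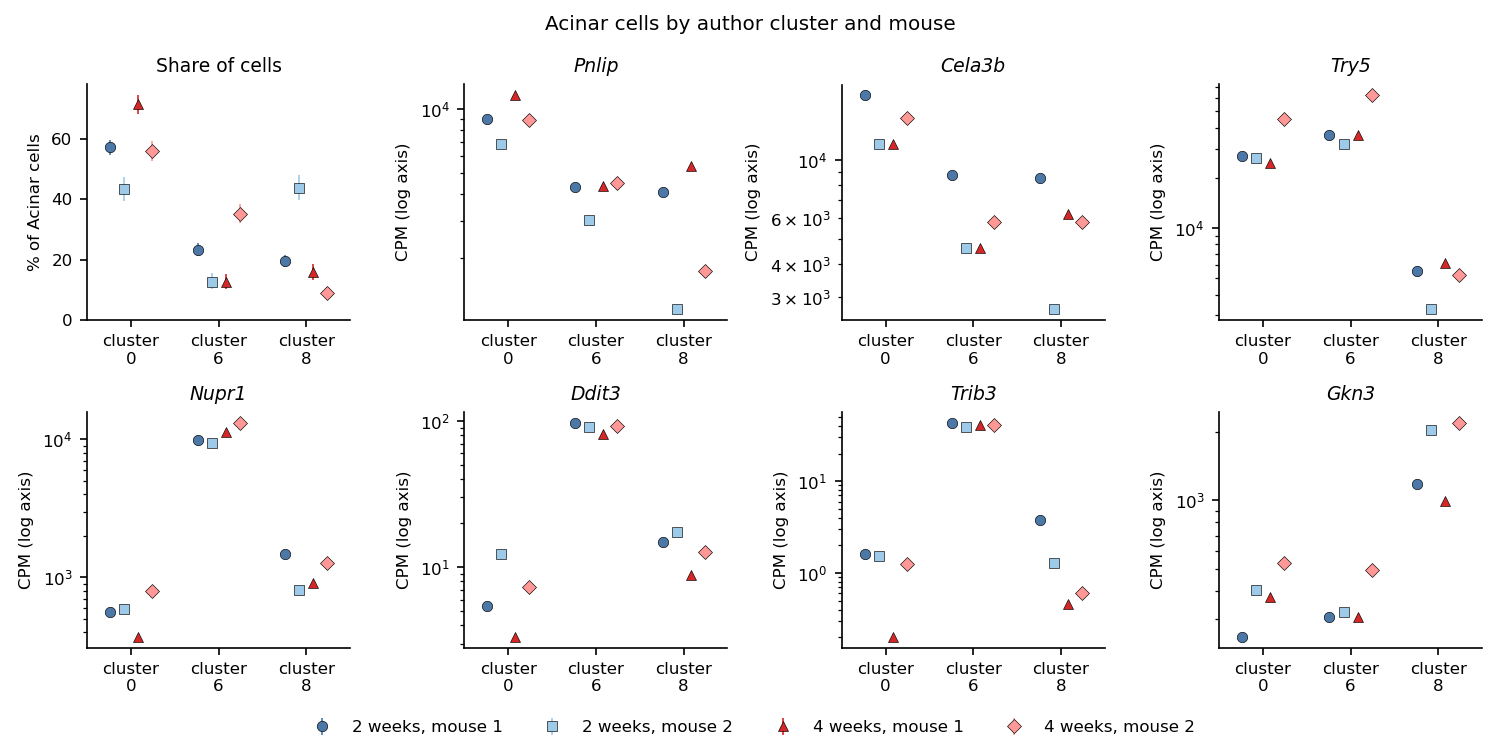
Share of Acinar cells in each author cluster (percent, with 95% exact binomial intervals) and the CPM (log axis) of 7 genes, 1 point per mouse. Nupr1, Ddit3 and Trib3 stood highest in cluster 6, Pnlip and Cela3b in cluster 0 and Gkn3 in cluster 8 in each of the 4 mice, while Try5 was lowest in cluster 8.

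Most trypsinogen genes were lowest in cluster 8. Try5 stood at 5070 ± 1251 CPM against 30625 in cluster 0 and 41628 in cluster 6, Prss2 at 10187 ± 1767 against 33919 and 22971, and Prss3 at 624.0 ± 255.1 against 4114 and 2551. The lipase and colipase sum was 107962 ± 16365 CPM against 108112 in cluster 0, with colipase Clps at 75314 against 63979 but Pnlip at 3094 against 9089. Most above both other clusters were Gkn3, a gastrokine of stomach mucous neck cells (1596 ± 598 CPM against 390.7 and 358.7), the translation inhibitor Pdcd4 (248.0 ± 55.9 against 87.65 and 85.92), the mitochondrial carrier Ucp2 (133.7 ± 27.7 against 48.34 and 43.37) and the transcription factor Mecom (78.16 ± 18.19 against 23.73 and 32.79). Transcription factors of the acinar program were also highest here, with a summed 1202 ± 90 CPM against 544.9 and 697.5, and Rbpjl at 304.0 CPM against 153.5 and 105.7. Mitochondrially encoded genes took their largest share here (12069 ± 2482 CPM against 4992 and 7167). ER folding genes (8999 ± 635 CPM against 5990 and 5097) and ribosomal protein genes (153855 ± 18936 against 81219 and 119646) did so too, but with enzymes out of the totals ER genes were higher in cluster 0 (14518 against 14025 CPM) and ribosomal genes were about as high in cluster 6 (239743 against 239286). Sox9 stood at 103.3 CPM against 39.33 and 38.65. There were 11 genes (0.0341%) 2-fold above and 4 (0.0124%) 2-fold below. With enzymes out of the totals the counts were 0 and 9, and the 9 were all trypsinogen or trypsinogen-like genes, such as Try5, Prss2 and Gm2663. Try4, the trypsinogen with the highest level in Acinar cells, was not among them. Cells of cluster 8 were the shallowest, with a median of 12983 to 20645 UMIs per mouse, and the part of depth in these differences was not tested beyond the thinned values that follow.

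To set cells of unequal depth side by side, each was thinned to 5000 UMIs, which left out 74, 30, 41 and 56 shallower Acinar cells of the 4 mice. At equal depth the median enzyme share was 52.9% to 60.2% in cluster 0, 44.4% to 52.6% in cluster 6 and 28.1% to 36.1% in cluster 8, over mice. Thinned cells of cluster 6 held a median of 37, 46, 44 and 53 Nupr1 UMIs, those of cluster 0 held 1 to 3 and those of cluster 8 held 4 or 5. Ddit3 had a UMI in 29.4% to 37.5% of thinned cluster 6 cells, in 1.35% to 4.25% of cluster 0 cells and in 2.70% to 7.32% of cluster 8 cells. Sox9 was found in 25.0% to 50.4% of thinned cluster 8 cells, 13.7% to 31.9% of cluster 0 cells and 15.1% to 22.6% of cluster 6 cells. Krt19 was found in 20.4% to 40.3% of cluster 6 cells and 10.2% to 37.0% of cluster 8 cells. Ranges over mice overlapped, though within each mouse Sox9 was most frequent in cluster 8 and Krt19 in cluster 6. Thinning evens out all UMIs but not those outside the enzymes, of which cluster 8 cells held more. The Krt19 share in cluster 0 was 5.31% in 2-week mouse 1 and 19.1% in 2-week mouse 2.

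Genes were also ranked by variance over mean among Acinar cells at equal depth. This ratio can rise with a gene's level, so a high rank is not the largest relative spread. First was Gm42418, which overlaps ribosomal RNA sequence (variance 180.8 to 306.3 times the mean over mice). Then came Ctrb1 (94.0 to 165.3), Try4, Try5, Clps and Reg1. Nupr1 was eighth of 3358 genes ranked, at 49.4 to 72.4. Its mean was 8.91 to 23.05 UMIs per thinned cell, against 838.2 to 1153.4 for Ctrb1. Of the 15 highest, 14 were also among the 15 highest at 1500 UMIs, the exception being Reg2. Sst, the hormone somatostatin, was on the list at a mean of only 0.181 to 0.349 UMIs per thinned cell with a variance of 12.26 to 137.1 times the mean.

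**Figure D3:**
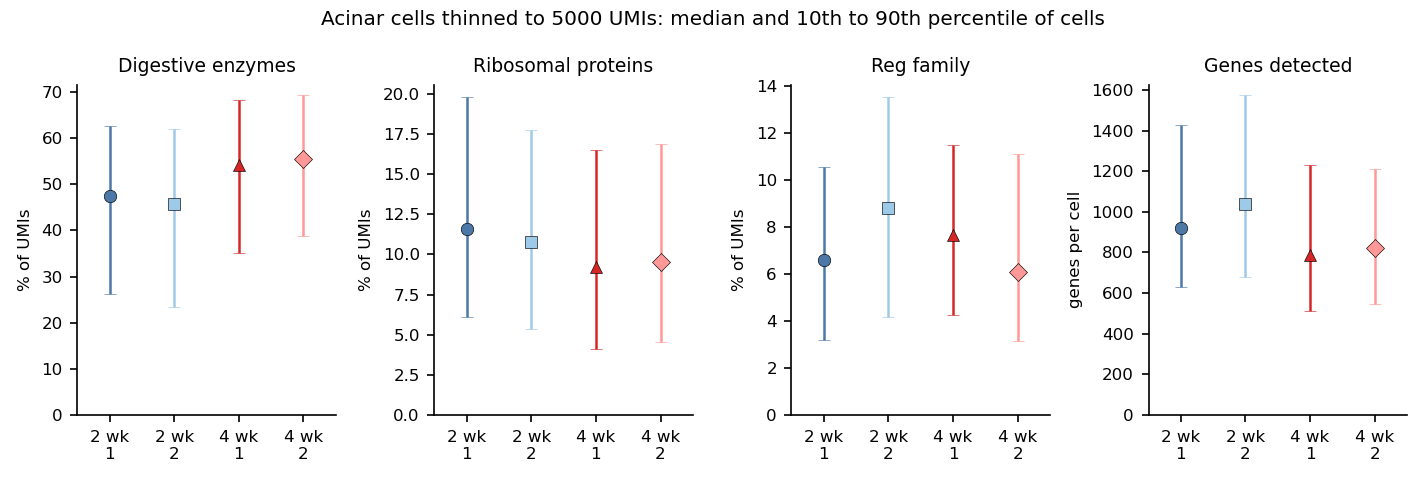
Acinar cells thinned to 5000 UMIs: median of cells in each mouse (marker) with the 10th to 90th percentile of cells (bar) for the share of UMIs from digestive enzymes, ribosomal protein genes and the Reg family, and for the number of genes detected. Enzyme shares had medians of 47.4% and 45.6% at 2 weeks, against 54.2% and 55.6% at 4 weeks, and spread widely between cells of each mouse.

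How the cells differed between 2 and 4 weeks was tested over mice. The median enzyme share of thinned Acinar cells was 47.38% and 45.64% at 2 weeks, against 54.20% and 55.56% at 4 weeks. Both 4-week mice lay above both 2-week mice, by 8.37 percentage points on average (two-sided exact permutation p = 0.3333, Benjamini-Hochberg adjusted over 7 measures 0.583), and 0.3333 is the smallest p that 2 against 2 mice can give. Within cluster 0 the medians were 52.90% and 53.20% at 2 weeks, against 58.07% and 60.23% at 4 weeks, while the groups overlapped in clusters 6 and 8. Ribosomal protein genes took 11.6% and 10.8% at 2 weeks, against 9.22% and 9.54% at 4 weeks, as shares of all UMIs. Gene by gene, 76 of 88 lay above 0 relative to the bulk of genes (TMM scaling, explained with the next test). Their median log2 difference was 0.19. On unscaled CPM 1 lay above and 87 below, where all genes tested split 703 above to 11640 below. A thinned cell showed a median of 919 and 1037 genes at 2 weeks, against 790 and 822.5 at 4 weeks. With the total fixed, a larger enzyme share leaves fewer UMIs for other genes, so this count is not independent of the enzyme share. Mitochondrially encoded genes took 0.52% and 0.88% of UMIs at 2 weeks, against 0.42% and 0.48%, and their part in the other differences was not tested. For these measures the groups did not overlap either, and the same exact test gave p = 0.3333 each.

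Gene by gene, 0 of 12343 genes (0.0%) differed between 4 and 2 weeks at an adjusted p under 0.05 in edgeR's quasi-likelihood test with Benjamini-Hochberg adjustment. An unadjusted p under 0.05 was reached by 90 genes higher at 4 weeks (0.729%) and 254 lower (2.06%). The smallest adjusted p in edgeR's quasi-likelihood test was 0.0639, for 2 genes of low level, Itln1 (8.56, 9.51, 1.82 and 1.80 TMM-scaled CPM) and 4930481A15Rik (0.797, 1.15, 8.94 and 7.56). Leaving out 1 mouse gave 85 calls without 2-week mouse 1, 129 without 2-week mouse 2, 13 without 4-week mouse 1 and 14 without 4-week mouse 2, in fits where the mouse left alone is assumed to vary like the others. DESeq2 called 15 genes on the counts of all 4 mice, 4 higher and 11 lower, among them Atf3, Klf6, C2cd4b, Cldn10, Itln1, Sst and Gm2663. The median gene moved by -0.37 on the log2 scale without normalization and by -0.03 with TMM (trimmed mean of M-values) normalization. Time differences within Acinar cells are therefore given on TMM-scaled CPM, that is, relative to the bulk of genes. On that scale both 4-week mice lay above both 2-week mice for 14.0% of genes and below them for 17.2%. Nothing named in the rest of this account of time passed the test.

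Of 32 enzyme genes tested, 30 had a log2 difference above 0 and 2 below, with a median of 0.61 against -0.03 over all genes. Of these, 16 had both 4-week mice above both 2-week mice on the TMM scale. On unscaled CPM the split was 27 to 5 and the median 0.18. The median was 1.15 without 2-week mouse 1, 0.29 without 2-week mouse 2, 0.40 without 4-week mouse 1 and 0.68 without 4-week mouse 2. Within cluster 0 alone it was 0.40, within cluster 6 0.27 and within cluster 8 0.34, while the share of the enzyme-poor cluster 8 was smaller in both 4-week mice. Ctrb1 stood at 176627 and 183211 TMM-scaled CPM at 2 weeks, against 300255 and 278641 at 4 weeks (log2 difference 0.69 ± 0.43 SE, adjusted p = 0.998 in edgeR's quasi-likelihood test). Its groups did not overlap. On the TMM scale all 6 lipase genes had groups that did not overlap. Pnlip led, at 6448 and 3156 at 2 weeks, against 12101 and 7599 at 4 weeks (1.04 ± 0.46). On unscaled CPM Clps overlapped, at 50916 and 61371 against 70197 and 50869. So did Pnlip, at the unscaled levels given earlier, while Ctrb1 did not. The granule protein Sycn, syncollin, stood at 4186 and 3372 against 6650 and 6086 (0.75 ± 0.34). Rbpjl overlapped, at 147.9, 159.3, 167.5 and 144.6 (0.02 ± 0.24), and of the 12 acinar transcription factors 3 lay above and 9 below 0 with a median of -0.08. On unscaled CPM 0 of these factors lay above 0 and 12 below, with a median of -0.48. ER folding genes split 25 above to 4 below (median 0.24), and 3 to 26 on unscaled CPM (median -0.22). Over all genes tested the unscaled split was 703 above to 11640 below, with a median of -0.37.

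**Figure D4:**
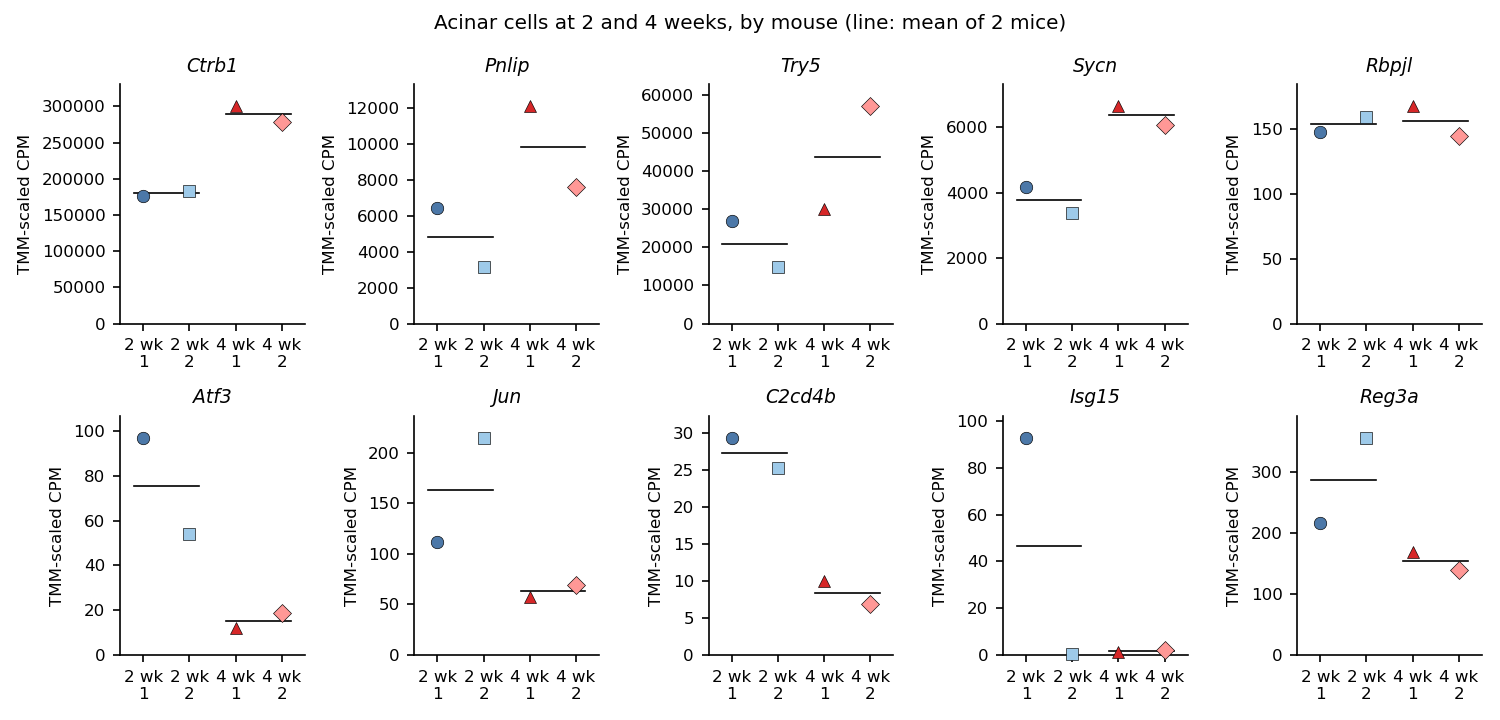
TMM-scaled CPM of 10 genes in Acinar cells of each mouse, with a line at the mean of the 2 mice of each time. Enzyme genes (Ctrb1, Pnlip, Try5) and Sycn were higher in both 4-week mice, Atf3, Jun, C2cd4b and Reg3a were lower in both, Rbpjl overlapped, and Isg15 was high in 2-week mouse 1 alone. On unscaled CPM Pnlip and Try5 overlapped between times. None of the 10 passed the test.

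Immediate early genes lay on the other side. Of 22 genes tested, which respond within minutes to stimuli and also to tissue dissociation, 21 had a log2 difference below 0, with a median of -1.39, and in 15 both 4-week mice lay below both 2-week mice. Atf3, a transcription factor of this group, stood at 96.97 and 53.96 TMM-scaled CPM at 2 weeks, against 12.02 and 18.61 at 4 weeks (-2.30 ± 0.36 SE, adjusted p = 0.718 in edgeR's quasi-likelihood test). Jun, its partner in AP-1, stood at 111.3 and 214.8 against 57.62 and 69.58 (-1.36 ± 0.35), and Klf6, a zinc finger factor, at 16.04 and 30.74 against 7.22 and 7.88 (-1.62 ± 0.33). Fos was high in 2-week mouse 2 alone, at 184.2 against 32.28 to 39.07 in the other mice. Without 2-week mouse 2 the median of the list was -0.41, with 5 genes above and 18 below 0. When tissue was taken and how long each digestion ran are not given in the sources used here for single mice, and their part was not tested.

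Interferon and MHC genes had the same median, -1.39, with 18 of 19 below 0, but this rested on 2-week mouse 1. Isg15, an interferon-induced ubiquitin-like protein, stood at 92.86 TMM-scaled CPM there and at 0.398, 1.30 and 2.25 in the other mice. Bst2, tetherin, stood at 260.6 against 22.69 to 51.36. Without that mouse the median of the list turned to 0.34, with 13 genes above and 6 below 0. Of 22 proliferation genes 21 lay below 0 (median -0.75), but without 2-week mouse 1 the split was 12 above to 10 below with a median of 0.14. Top2a, a topoisomerase of dividing cells, was at 14.59 in 2-week mouse 1 and 3.07 to 3.49 in the other mice.

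Other genes were named for groups that did not overlap and the smallest unadjusted p, at 10 CPM or more. Lower at 4 weeks were C2cd4b (29.32 and 25.21 against 9.97 and 6.84 TMM-scaled CPM, log2 difference -1.70 ± 0.24, adjusted p = 0.380 in edgeR's quasi-likelihood test), the tight junction gene Cldn10 (23.40 and 12.69 against 6.75 and 4.15), Zfp36l1, Trib1, Lgalsl, Tapbp and Cd74. Higher were Gm2663 (2982 and 2753 against 5780 and 8274), Ramp1, a receptor modifying protein (48.54 and 58.34 against 89.24 and 146.2), the glycine methyltransferase Gnmt (26.04 and 19.11 against 46.39 and 35.25), Pate14, Cpe, Ccdc107, Tpd52l1, Fam13a and Coq8a. Sst stood at 42.09 and 24.64 against 124.3 and 85.72 (1.65 ± 0.33), but its log2 difference was -0.00366 within cluster 6 and -0.59 within cluster 8. Of the 14 enteroendocrine and islet genes tested, 11 lay below 0 (median -0.69). That list, which holds Sst, summed to 607.0, 229.7, 254.7 and 235.7 CPM in Acinar cells, against 121806 ± 53683 in EEC (enteroendocrine) cells and 303.4 ± 172.4 in lymphocytes, and its part in the Sst values was not tested. The Reg family of injury-induced lectins had 5 of 6 genes below 0 (median -0.61), and 3 of 6 without 2-week mouse 2 (median -0.11). Reg3a, also called a pancreatitis-associated protein, stood at 216.6 and 355.5 against 169.0 and 138.6 (-0.90 ± 0.32), and Reg2 at 7647 in 2-week mouse 2 against 1592 to 2348 elsewhere. Nupr1 overlapped between time points, at 3906, 1800, 2608 and 6743 TMM-scaled CPM, where the shares of cluster 6 cells were 23.20%, 12.69%, 12.60% and 35.20%.

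Whether time differences in Acinar cells were unlike those in the nearest types was tested as an interaction. Against Acinar/MucinDuctal cells 22 of 13411 genes (0.164%) passed in edgeR's quasi-likelihood test with Benjamini-Hochberg adjustment, and in 21 of them the 4-week over 2-week difference was lower in Acinar cells. The fit held the mouse as a block, since both types come from the same 4 mice. Of the 22 genes, 5 are on the immune list (C1qa, C1qb, C1qc, Lyz2 and Ms4a1). Levels are given as unscaled CPM here, and the log2 changes come from the TMM-normalized fit. C1qa, a complement chain made by macrophages, stood at 6.27, 5.99, 1.72 and 1.60 CPM in Acinar cells and at 13.99, 13.65, 44.61 and 46.37 in Acinar/MucinDuctal cells (difference of log2 changes -3.18 ± 0.29 SE, adjusted p = 0.00013). So the values lay lower at 4 weeks in Acinar cells and higher in the other type, with no overlap in either. Lyz2, lysozyme, stood at 5.36 to 12.96 CPM in Acinar cells, and at 24.84 and 30.86 CPM at 2 weeks, against 102.9 and 109.5 at 4 weeks in the other type. The MHC class II genes H2-Aa, H2-Ab1, H2-Eb1 and Cd74, the complement genes C1qb and C1qc, and Coro1a, Cd52, Fcer1g, Rac2, Ms4a7 and the B cell gene Ms4a1 shared the sign of the interaction. The Acinar values of Cd52, Rac2, Ms4a1 and H2-Ab1 overlapped between times.

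The whole immune list of 14 genes summed to 21.47, 32.61, 14.82 and 12.59 CPM in Acinar cells and to 63.66, 76.74, 283.7 and 280.5 CPM in Acinar/MucinDuctal cells, against 4487 ± 491 in lymphocytes. In Acinar cells the granulocyte gene S100a8 was at 0 in 3 mice, and Ptprc, the pan-leukocyte gene, at 0.268 to 1.27 CPM. Acinar/MucinDuctal cells were shallow, with median UMIs of 3387, 19556, 2659 and 3555. The part of immune cell RNA and of depth in these differences was not tested.

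Of the genes with other roles, Klf6 stood at 16.86, 40.04, 5.94 and 6.98 CPM in Acinar cells and at 26.83, 66.53, 50.23 and 41.18 in Acinar/MucinDuctal cells (-1.66 ± 0.24, adjusted p = 0.00637 by the same edgeR quasi-likelihood test). Only the Acinar values lay apart between times. Cldn10 stood at 24.61, 16.54, 5.55 and 3.67 CPM against 33.69, 15.03, 25.32 and 21.51 (-1.80 ± 0.26), and Rhob, a small GTPase, at 9.78, 25.81, 4.56 and 5.05 against 30.26, 55.06, 47.82 and 38.28 (-1.36 ± 0.23). Klf6 and Rhob were not called without 4-week mouse 1, and Klf6, Cldn10 and Rhob were not called without 4-week mouse 2 (adjusted p of 0.0662, 0.225 and 0.184 in edgeR's quasi-likelihood test). DESeq2 did not call Rhob, nor did the fit without robust estimation. Ankrd1, a target of the YAP pathway, had 10, 26, 1 and 2 UMIs in Acinar cells and 0, 1, 12 and 29 in the other type, too few for a size. Steap1, a metalloreductase, was the gene in the opposite direction, at 5.55, 2.54, 2.41 and 18.50 CPM against 5.42, 2.18, 0.804 and 4.88 (2.08 ± 0.39, adjusted p = 0.0493). Its highest value was in 4-week mouse 2, and it was not called without that mouse, without 2-week mouse 2, in DESeq2, with relative log expression size factors or without robust fitting in edgeR. Leaving out 2-week mouse 1, 2-week mouse 2 or 4-week mouse 1 gave 179, 70 and 27 genes. Without 4-week mouse 2, the mouse that stood apart in sex-linked genes, 8 genes passed, 7 of them among the 22.

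Against Acinar.Prolif cells 2 of 12262 genes (0.0163%) passed the same edgeR test. Cxcl9, a chemokine, had 37, 1, 0 and 0 UMIs in Acinar cells and 5, 0, 99 and 0 in Acinar.Prolif cells, too few for a size. Jchain, the joining chain of antibodies, had 819 UMIs in Acinar cells of that same mouse and 14 to 81 in those of the others. Neither passed without 4-week mouse 1 or without 2-week mouse 1, nor in DESeq2. Without 2-week mouse 2 the count was 136, without 4-week mouse 1 it was 22 and without 4-week mouse 2 it was 8.

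**Figure D5:**
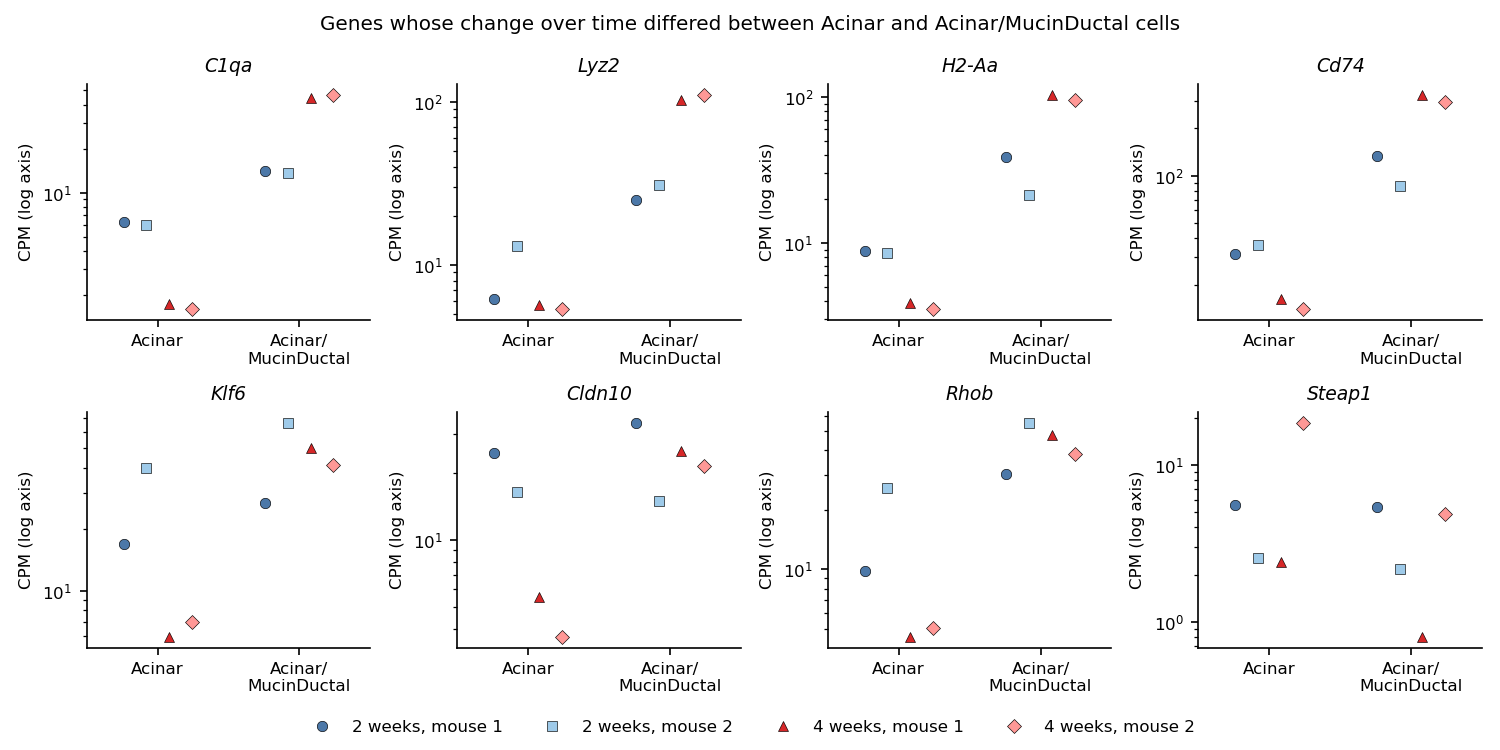
CPM (log axis) of 8 genes with a significant interaction, in Acinar and Acinar/MucinDuctal cells, 1 point per mouse. C1qa, H2-Aa and Cd74 were lower at 4 weeks in Acinar cells and higher at 4 weeks in Acinar/MucinDuctal cells, and Klf6, Cldn10 and Rhob were lower at 4 weeks in Acinar cells.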

How the data were processed

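Per the submitters' processing notes, reads were processed with Cell Ranger 4.0.0 and Seurat 3.2.3 on mm10. The deposited table holds raw UMI counts per gene and cell, and the authors' cell type names and cluster numbers came with it. How types and clusters were drawn from the counts is not given in the sources used here. UMIs were summed over the Acinar cells of each mouse and given as CPM. Times and type-by-time interactions were tested on these sums with edgeR 4.0.16 (quasi-likelihood, TMM, expression filter, robust) in R 4.3.3. DESeq2 1.42.0 was an alternative, and Benjamini-Hochberg adjustment ran over all genes tested. The SE of a log2 difference was worked back from the edgeR test, as its absolute value divided by the square root of the F statistic. The fit was run on simulated counts that gave every gene the same spread between samples, and no result here rests on that run. Each sample has its own title and was taken as 1 mouse. The labels do not spell this out, and p-values measure only the spread between these samples. The members and gene lists were chosen with earlier results of these data known. Genes over time were named among those at 10 CPM or more with groups that did not overlap, 10 in each direction, by unadjusted p. Against types and clusters, 12 genes were named in each direction by the smallest log2 difference. No doublet caller was run, and leaving out the deepest 5% of cells was an alternative. Types with under 20 cells in a mouse were left out there. Promoter windows came from RefSeq. A further member of the T and B cell set used to find lymphocytes is not reported here.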

Additional observations from a re-analysis of the deposited data

Results flagged for a closer look

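The genes here had a 4-week over 2-week difference in Acinar cells that differed, by an interaction test over mice (edgeR's quasi-likelihood test with Benjamini-Hochberg adjustment), from that in another type. Values are the Acinar log2 change minus that of the other type. Against Acinar/MucinDuctal cells, genes known from immune cells or antigen presentation had values of -3.18 for C1qa, -2.72 for C1qb, -3.04 for C1qc, -2.60 for H2-Aa, -1.76 for H2-Ab1, -2.13 for H2-Eb1, -2.27 for Cd74 and -2.24 for Lyz2. For Coro1a the value was -3.12, for Cd52 -2.00, for Fcer1g -2.55, for Rac2 -2.44, for Ms4a7 -3.13 and for Ms4a1 -4.93. Ms4a1 had 1 to 35 UMIs per mouse and type, too few for a size, and DESeq2 called none of Cd52, Rac2, Ms4a7 and Ms4a1. Levels of these immune and antigen presentation genes in Acinar cells were low, and 5 of the 22 genes are on the immune list whose sums are given with the results. Genes with other roles had values of -1.66 for Klf6, -1.80 for Cldn10, -1.36 for Rhob, -1.30 for the tubulin Tuba1a, -3.48 for Runx1t1 and -2.50 for Neurog3, the factor that starts endocrine differentiation. Ankrd1 had a value of -9.43, on 0 to 29 UMIs per mouse and type. Steap1 had 2.08. Against Acinar.Prolif cells the values were -11.13 for Cxcl9 and 3.40 for Jchain, each with most of its UMIs in 4-week mouse 1. The value for Cxcl9 rests on 0 UMIs in Acinar cells of both 4-week mice and, like that for Ankrd1, is no measure of size.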

How the results depend on the processing

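The count of genes called over time was 0 with relative log expression size factors, without robust fitting, with enzymes left out, without the deepest cells or those under 5000 UMIs, and in clusters 6 and 8 alone. It was 15 with DESeq2, 286 with no gene filter, 4 in cluster 0 alone and 13 to 129 without 1 mouse. Against Acinar/MucinDuctal cells the interaction count of 22 became 80 with no filter and 8 to 179 without 1 mouse. Of the 22 genes, 9 were not called by DESeq2. Against Acinar.Prolif cells the count of 2 became 0 with DESeq2 (110 at an unadjusted p under 0.05), 90 with no filter and 3 to 136 without 1 mouse. Genes 2-fold below every type numbered 12 of 1100, and 2 of 1509 with enzymes out of the totals. With a pseudocount of 10 CPM the count was 6, and without 1 mouse it was 12 to 20. The counts between clusters with enzymes out of the totals, given with the results, were chosen after seeing the data, as were the fits within clusters. Genes 2-fold above every type numbered 2 with enzymes out and 0 to 2 without 1 mouse. The 4-week minus 2-week difference per cell ranged, without 1 mouse, over 7.5 to 9.24 points for enzymes, -2.22 to -1.42 for ribosomal, -0.43 to -0.07 for mitochondrial, -0.17 to -0.01 for ductal, -0.09 to 0.01 for SPEM and -1.94 to 0.3 for Reg genes, and -230.8 to -112.8 genes detected. SPEM (0.01) and Reg (0.3) turned sign without 2-week mouse 2. Sst turned sign in cluster 6 alone (-0.00366) and cluster 8 alone (-0.59). The causes were not tested. Differences of genes with few UMIs in a mouse are limited by depth. No paired analysis was possible because the replicate numbers are only the order of deposit and pair no mice between times. The interaction fits compare types of the same mouse and held the mouse as a block.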
